A study of Mus musculus with 2 samples.

Results

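The genes described here are a set of 10 p53 targets and growth arrest genes, most of them textbook transcriptional targets of the tumour suppressor p53. They are Mdm2, Gadd45a, Gadd45b, Gadd45g, Plk2, Plk3, Perp, Btg2, Ccng1 and Sesn1. They were taken by symbol from a fixed list, which was chosen with earlier results of these data known. Matching went through the RefSeq accession of each array probe, and all 10 were found among 20433 genes with a symbol on the array. Each had 1 probe with 1 spot, well above background on both arrays and without an outlier or saturation flag. All 10 are therefore also among the 14273 genes measured on at least 1 array.

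The samples were 2 stable lines of ATDC5, a mouse cell line that can be driven along the chondrocyte pathway. One carried a lentiviral GFP construct as control and the other a lentiviral HES1 construct, so viral transduction was common to both. HES1 is a transcriptional repressor downstream of Notch receptors. RNA was taken from monolayers on 60 mm dishes after 3 days, and RNA of each line went onto 1 Agilent array read in a single colour. The labels do not say whether a line was 1 clone or a mixture, nor which promoter drove the construct. With 1 array per group the differences have no replicate check and no p-values. A gene is therefore described as higher or lower only where its signals differed 2-fold or more. The only error available is that of the scanner software, which for these bright single spots is almost wholly a fixed share of the signal and came to between 0.20 and 0.21 on each log2 difference. It covers reading of the spot, not differences between cultures.

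Signals are given as multiples of the 75th percentile of each array's spots, 730.1 scanner units for GFP and 689.1 for HES1. A multiple can be compared between arrays for 1 gene but not between genes, since probes differ in brightness. Well above background were 54.6% (GFP) and 56.6% (HES1) of the spots. The reference genes Actb and Gapdh had log2 differences of -0.27 and -0.11. The single mouse Hes1 probe stayed under the background limit on both arrays (0.00967 and 0.00973 times the 75th percentile), so it checks neither label. Of 15 chondrocyte markers, 10 were above background, among them Sox9 (3.48 in the GFP sample, 3.05 in that labelled HES1) and Col2a1 (13.0 and 6.98). Matn1, Matn3, Hapln1, Cnmd and Snorc were not above background on either array. Over the 10 measured markers the median log2 difference was -0.33, and 0 were 2-fold higher. Only Sox6 (10%) was 2-fold lower by its signals. Its HES1 spot was under the background limit, and the drop was at least 1.48-fold. Of 6 measured osteoblast markers 3 (50%) were 2-fold or more lower, with a median of -1.02, and of 7 fibroblast markers 0 differed by that much. Over all genes measured, 11.1% were 2-fold or more higher and 4.95% lower. Of 7 macrophage markers on the array, Csf1r (1.87 and 1.92) and Cd14 (0.512 and 0.472) were above background on both arrays and Ptprc on the HES1 array only. Adgre1, Lyz2, Tyrobp and Laptm5 were on neither. The part of any shift in cell state in the results was not tested. In bulk RNA, fewer cells that express a gene and less of its RNA per cell cannot be told apart.

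p53 is a transcription factor that DNA damage and other stresses stabilise, and its targets halt the cell cycle, repair DNA or start apoptosis. Mdm2, a ubiquitin ligase, degrades p53 and is itself a p53 target, which closes a feedback loop. Several genes of the set also respond to signals other than p53: Gadd45a and Gadd45g to cell stress, Gadd45b to NF-kappaB and TGF-beta, and Plk2, Plk3 and Btg2 to serum and growth factors as immediate early genes. In growth plate cartilage GADD45B is known for raising the expression of genes of hypertrophic chondrocytes.

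The set did not move as one. In the sample labelled HES1, 5 of the 10 genes passed 2-fold upwards, namely the 3 Gadd45 genes, Plk2 and Plk3, beside 11.1% of all genes measured. Perp and Sesn1 passed 2-fold downwards, beside 4.95% of all genes. Mdm2, Btg2 and Ccng1 lay within 2-fold. Because the set was chosen with earlier results of these data known, setting its counts beside these shares is no test. The shares also take in genes above background on 1 array only, whereas all 10 genes were above it on both. The median log2 difference of the set was 1.28, against -0.06 over all genes, and it is no centre of the set, because it falls in the gap between Gadd45g and Btg2.

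**Figure D1:**
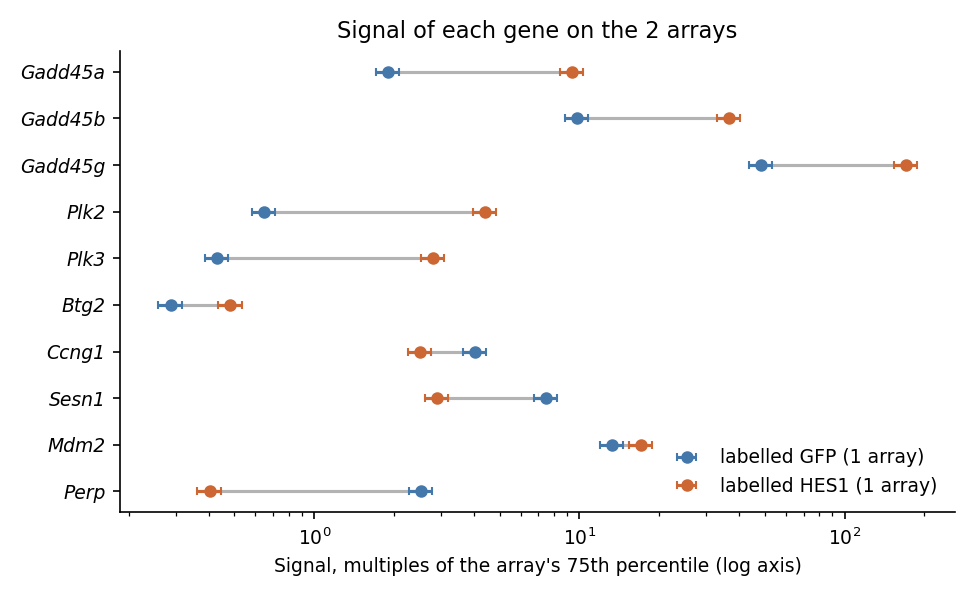
Signal of each gene as a multiple of the array's 75th percentile (log axis) in the sample labelled GFP (blue) and the sample labelled HES1 (orange), 1 array each, with the scanner software's error as bars. The orange point lies right of the blue one for the 3 Gadd45 genes, Plk2, Plk3, Btg2 and Mdm2, and left of it for Ccng1, Sesn1 and Perp.

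The GADD45 proteins are small nuclear proteins that bind the CDK1 and cyclin B complex, the replication clamp PCNA and the stress kinase MAP3K4. All 3 genes of the family were higher in the sample labelled HES1. Gadd45a, the classical DNA damage-inducible member and a p53 target, went from 1.89 ± 0.19 times the 75th percentile in the GFP sample to 9.37 ± 0.94 (± scanner error), 4.95-fold higher. Gadd45b, the member induced by NF-kappaB, went from 9.81 ± 0.98 to 36.8 ± 3.7, which is 3.75-fold higher. Gadd45g, induced by cytokines and stress, went from 48.3 ± 4.8 to 170.2 ± 17.0, or 3.52-fold higher. For each of the 3 genes the gap between the arrays was several times the scanner error on either side. On the log2 scale the differences were 2.31, 1.91 and 1.82. Those of Gadd45b and Gadd45g were 0.09 apart, within the technical error of 0.29 on a gap between 2 genes, whereas Gadd45a stood 0.40 above Gadd45b.

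The promoters of the 3 Gadd45 genes, which were higher together, are shown from RefSeq on mouse build GRCm38.p6, each running 5′ to 3′ from 250 bases before the annotated start to 50 after it. Capitals mark CACGNG on either strand, letters that take in the class C site bound by HES proteins and the E-box CACGTG.
Gadd45a, chr6:67037358-67037657, minus strand: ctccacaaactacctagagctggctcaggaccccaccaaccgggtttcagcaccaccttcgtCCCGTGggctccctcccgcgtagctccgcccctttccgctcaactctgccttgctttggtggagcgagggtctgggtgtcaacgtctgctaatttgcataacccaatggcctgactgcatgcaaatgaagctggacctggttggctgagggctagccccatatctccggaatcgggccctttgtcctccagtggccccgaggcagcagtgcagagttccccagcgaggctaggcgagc
Gadd45b, chr10:80929841-80930140, plus strand: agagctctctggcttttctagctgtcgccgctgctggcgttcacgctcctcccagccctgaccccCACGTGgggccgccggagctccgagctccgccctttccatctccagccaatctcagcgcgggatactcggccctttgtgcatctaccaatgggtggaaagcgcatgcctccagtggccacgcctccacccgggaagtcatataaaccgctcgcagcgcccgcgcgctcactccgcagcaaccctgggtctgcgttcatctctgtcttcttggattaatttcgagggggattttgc
Gadd45g, chr13:51846425-51846724, plus strand: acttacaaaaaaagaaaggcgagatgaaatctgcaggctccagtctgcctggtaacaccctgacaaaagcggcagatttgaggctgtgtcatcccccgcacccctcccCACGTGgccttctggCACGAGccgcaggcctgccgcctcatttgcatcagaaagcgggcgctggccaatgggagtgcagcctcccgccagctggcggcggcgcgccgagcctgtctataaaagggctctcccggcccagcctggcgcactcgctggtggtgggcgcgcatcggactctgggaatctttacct
The match lay 188 bases before the start in Gadd45a and 185 before it in Gadd45b, where it is CACGTG. Gadd45g held CACGTG 142 bases before the start and CACGAG 127 before it. The string TATAAA was found 46 bases before the start of Gadd45b and 27 before that of Gadd45g, and not in the window of Gadd45a. It occurs in 13.6% of all 32851 promoter windows of this length, and in 4.72% of those in the GC range of the 10 windows of the set (55.7% to 72.0%). The octamer ATTTGCAT was found in Gadd45a, 97 and 70 bases before the start, and in Gadd45g, 103 before it, against 1.74% of all windows and 0.94% of those in that GC range. In Gadd45g the octamer overlaps TGATGNAA, the site of ATF4 with C/EBP partners, which was in 3.97% of all windows and 1.74% in the GC range. Distances count from the start to the leftmost base of a match on the strand shown. These are matches of letters, not measured binding.

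Genes for the binding partners and downstream targets of GADD45 proteins, in a list of 14 with the phosphatases that activate CDK1, went the other way or stayed within 2-fold. All 14 were measured. None of them (0) was 2-fold higher, while 5 (35.7%) were 2-fold lower or more, with a median log2 difference of -0.44. Over all genes 11.1% were higher and 4.95% lower. Under loess Cdk1 (-0.95), and under normexp Cdc25c (-0.99), fell just short of 2-fold, which left 4. The 5 were genes of entry into mitosis. Ccnb2 and Ccnb1, the B-type cyclins, were 3.48-fold lower (31.2 and 8.98) and 2.91-fold lower (18.2 and 6.26). Cdc25b and Cdc25c, phosphatases that remove the inhibitory phosphates of CDK1, were 3.21-fold lower (7.02 and 2.19) and 2.44-fold lower (0.708 and 0.291). Cdk1 itself was 2.14-fold lower by its brightest probe, and by its second probe, with a log2 difference of -0.89, it stayed within 2-fold. The stress kinases lay within 2-fold, with -0.39 for Map3k4, which GADD45 proteins activate, and -0.98 for Map2k6 as the lowest. Pcna was at -0.13.

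Plk2 and Plk3 are polo-like kinases of interphase that respond to stress and mitogens and have been described as p53 targets. They had the 2 largest differences of the set. Plk2 went from 0.647 ± 0.066 times the 75th percentile in the GFP sample to 4.42 ± 0.44, which made it 6.83-fold higher. Plk3 went from 0.430 ± 0.044 to 2.81 ± 0.28, or 6.54-fold higher. Their log2 differences of 2.77 and 2.71 were 0.06 apart, within technical error. Plk3 stood 0.40 above Gadd45a, the next in order, but under normexp, another background correction, that gap was 0.05 and within technical error. The relatives that act in mitosis and centriole copying did not follow them. Plk1, the mitotic kinase, was 2.48-fold lower (19.1 and 7.69), and Plk4, the kinase that starts centriole duplication, had a log2 difference of -0.49.

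The promoters of the 2 kinases with the largest differences are shown on the same build and in the same span, with CACGNG on either strand in capitals.
Plk2, chr13:110394794-110395093, plus strand: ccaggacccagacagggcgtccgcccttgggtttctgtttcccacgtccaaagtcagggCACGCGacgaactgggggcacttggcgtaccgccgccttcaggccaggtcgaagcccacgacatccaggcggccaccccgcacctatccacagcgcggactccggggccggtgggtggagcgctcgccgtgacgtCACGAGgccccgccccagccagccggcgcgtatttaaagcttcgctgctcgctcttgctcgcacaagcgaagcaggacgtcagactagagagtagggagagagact
Plk3, chr4:117133914-117134213, minus strand: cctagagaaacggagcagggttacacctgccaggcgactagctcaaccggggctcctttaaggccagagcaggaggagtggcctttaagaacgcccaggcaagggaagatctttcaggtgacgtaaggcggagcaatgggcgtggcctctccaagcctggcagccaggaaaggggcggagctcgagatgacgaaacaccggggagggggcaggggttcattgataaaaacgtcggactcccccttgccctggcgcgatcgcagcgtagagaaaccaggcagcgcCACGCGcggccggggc
Plk2 held CACGCG 191 bases before the start and CACGAG 56 before it. The latter also matches the N-box, CACNAG, another sequence known to be bound by HES proteins, and it overlaps the cyclic AMP response element TGACGTCA, which lay 62 bases before the start. Plk3 held CACGCG 35 bases after the start, and its only matches to the shorter TGACG were 132 and 63 bases before it. TGACGTCA was in 1.79% of all windows and 3.17% in the GC range. TGACG, which it contains, was in 20.8% and 30.5%. Of the set, Btg2 held it too, 166 bases before its start.

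CACGNG was found in the windows of all 5 higher genes, and also in those of Mdm2 and Btg2, which lay within 2-fold. It was not in the windows of Ccng1 or Sesn1. It occurs in 27.5% of all windows and in 41.7% of the 11487 windows in the GC range. CACNAG was in the windows of Gadd45g and Plk2 and in 1 of the 2 windows of Sesn1. It was in 42.5% of all windows, with the same share in the GC range. Neither TGANTCA, the AP-1 site, nor TTCNNNGAA, the STAT site, was in any window of the set, against 7.81% and 8.30% of all windows and 4.42% and 5.83% in the GC range. CCAAT was in 8 of the 10 windows of the set, those of all genes with a window but Plk2 and Plk3. It was in 37.4% of all windows and 36% in the GC range. In all, 11 motifs were searched on both strands. The 10 windows of the set cover 9 genes, since Sesn1 has 2 windows and Perp had no entry in the promoter table.

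Mdm2, the ubiquitin ligase of the p53 feedback loop, was within 2-fold. Its signal was 13.3 ± 1.3 under GFP and 17.1 ± 1.7 under HES1, a log2 difference of 0.36 beside a technical error of 0.20. Ccng1, which encodes cyclin G1, a partner of the phosphatase PP2A that acts on MDM2, was on the other side of 0, at 4.03 ± 0.40 and 2.51 ± 0.25, a log2 difference of -0.69. Its relative Ccng2 was at -0.10.

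Sesn1, a stress-induced inhibitor of mTORC1 signalling, was 2.57-fold lower in the sample labelled HES1, at 7.46 ± 0.75 and 2.91 ± 0.29. Neither of the other sestrins passed 2-fold downwards, though Sesn3 lay on the same side of 0. Sesn2, which ATF4 also induces, was 2.08-fold higher (1.88 and 3.91), a log2 difference of 1.06 that was 0.96 under normexp and so within 2-fold there, and Sesn3, a FOXO target, was at -0.63 on the log2 scale.

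Perp encodes a tetraspan membrane protein of desmosomes that is needed for some p53-dependent cell death. It had the lowest difference of the set. Its signal dropped from 2.52 ± 0.25 under GFP to 0.403 ± 0.041 under HES1, 6.26-fold lower. Only 35 of the 14273 genes had a lower difference. Pmp22, which encodes a related tetraspan protein, was at -0.63.

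Btg2, an antiproliferative cofactor of mRNA deadenylation, went from 0.288 ± 0.030 to 0.483 ± 0.049. Its log2 difference of 0.75 exceeded the technical error of 0.21 and stayed within 2-fold. Its relative Btg1 was at -0.41 by the brightest probe and -0.97 by the second, Btg3 at -0.05, Tob1 at -0.83 and Tob2 at 0.29. Under normexp the gap between Btg2 and Mdm2 was 0.24, within the technical error of 0.29.

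A p53 binding element is made of pairs of a 10-base unit. A match to 1 such unit, the p53 half-site, was found in the windows of Mdm2, Gadd45a, Ccng1 and Sesn1 (at 1 of its 2 annotated starts), and in 8.36% of all windows and 7.1% in the GC range. The 40 bases around each match are shown on GRCm38.p6, with the 10 matching bases in capitals.
Mdm2, chr10:117710920-117710959, minus strand: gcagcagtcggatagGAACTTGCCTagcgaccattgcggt
Gadd45a, chr6:67037423-67037462, minus strand: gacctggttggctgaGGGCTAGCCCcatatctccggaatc
Ccng1, chr11:40755447-40755486, minus strand: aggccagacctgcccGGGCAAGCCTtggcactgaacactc
Sesn1, chr10:41887251-41887290, plus strand: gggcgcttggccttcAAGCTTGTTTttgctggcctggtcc
The matches lay 186, 40, 185 and 173 bases before the start. Of these 4 genes 1 was higher, 1 was lower and 2 lay within 2-fold. Only single units were searched for, and the known p53 elements of Mdm2 and Gadd45a lie in introns.

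The genes of p53 and its regulators were mostly within 2-fold. Of 23 measured genes, 1 was higher and 1 lower (4.35% each), beside 11.1% and 4.95% of all genes, with a median log2 difference of -0.04. Trp53, the gene for p53, had signals of 0.0777 and 0.0943, GFP sample first, a log2 difference of 0.28 beside a technical error of 0.20. These signals were near those of the dimmest probes called above background, 0.0361 and 0.0369. Over the other settings the Trp53 difference ran from 0.10 (normexp) to 0.31 (another scaling constant), with 0.14 under quantile normalization. Mdm4, the p53 inhibitor related to Mdm2, gave -0.26 and 0.22 by its 2 probes, and Ppm1d, a phosphatase that shuts p53 signalling down, was at -0.24. The higher gene was Daxx, a histone chaperone that interferon also induces, at 8.90-fold (10.8 and 96.3). The lower gene was Chek1, the replication checkpoint kinase, which was at least 1.95-fold lower, its HES1 spot being under the background limit, so by bounds 0 genes were lower. Under normexp the log2 difference of Chek1 was -0.28. A bound sets the bright signal against the higher of the dim probe's own signal and the dimmest probe that array called above background. A second probe of Trp73, a p53 relative, was at least 6.77-fold higher, its GFP spot being under the background limit, while the brightest Trp73 probe was at 0.02. Trp63, another relative, gave 0.03 and 1.45 by its 2 probes.

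Other p53 targets were split as well. Of 33 measured, 5 (15.2%) were higher by the 2-fold rule and 4 (12.1%) lower, with a median of -0.21. Over all genes the shares were 11.1% and 4.95%. Under loess, and under normexp, the lower count fell to 1 (Ckap2). Gdf15, a stress-induced cytokine, was 35.6-fold higher by its signals (0.0378 and 1.35), the GFP spot being under the background limit. Its log2 difference of 5.15 had a technical error of 0.41 and was 3.07 under normexp. Cdkn1a, the gene for the CDK inhibitor p21, was 4.48-fold higher (0.298 and 1.34) by 1 probe, whose 10 spots gave a technical error of 0.07. Its log2 difference of 2.16 moved by more than that error with the processing, to 2.30 under loess and 1.74 under normexp. A second Cdkn1a probe was not above background on either array (0.0111 and 0.0182). The receptor kinase Epha2 was 3.49-fold, the nuclease Aen 2.70-fold and the phosphatase Ptpn14 2.48-fold higher. The lower genes were Ckap2 (2.81-fold) and Gtse1 (2.12-fold), both of dividing cells, the apoptosome gene Apaf1 (2.12-fold) and the sulfatase Sulf2 (2.09-fold). The pro-apoptotic gene Bax was at -0.21 and Bbc3, which encodes PUMA, at -0.37. The death receptor genes Fas and Tnfrsf10b lay on the other side of 0, at 0.37 and 0.44, also within 2-fold. Pmaip1 and Eda2r were not above background on either array.

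In the list of relatives of the 10 genes, 13 of 15 were measured, 1 was higher (Sesn2) and 1 lower (Plk1), each 7.69%, beside 11.1% and 4.95% of all genes, with a median of -0.41. Plk5 and Btg4 were not above background on either array.

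**Figure D2:**
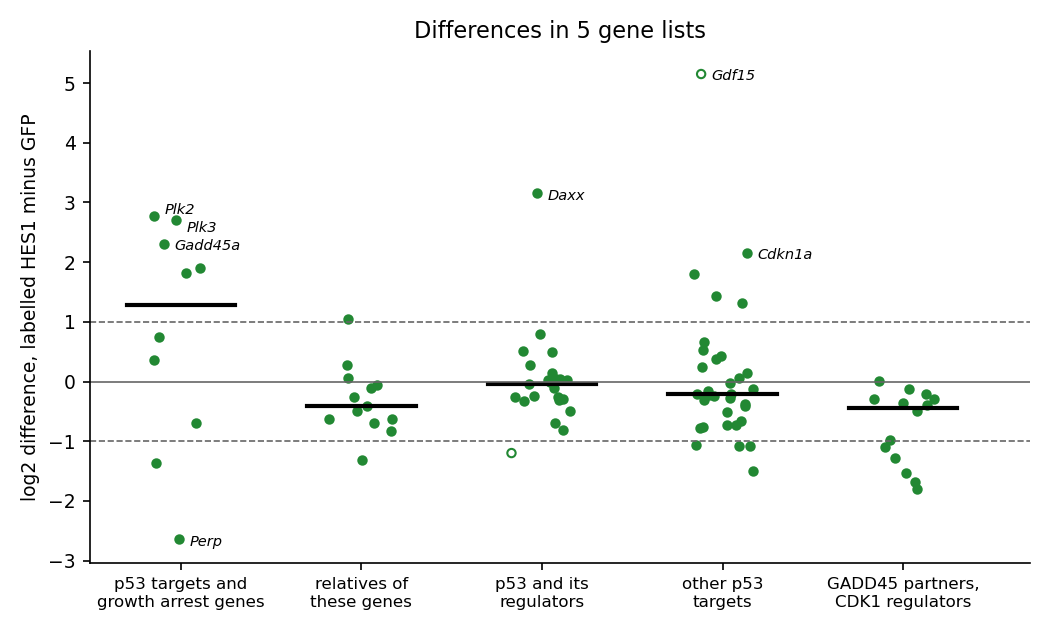
Log2 difference, sample labelled HES1 minus sample labelled GFP, for each measured gene of 5 lists, with the list's median as a bar, 2-fold as dashed lines and genes well above background on 1 array only as open circles. The median of the set is 1.28, and the medians of the other 4 lists lie between -0.44 and -0.04. The 10 genes of the set spread from -2.65 to 2.77, and the other p53 targets from -1.49 to 5.15.

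Among all 14273 genes, 494 had a larger difference than Plk2, 508 than Plk3, 663 than Gadd45a, 818 than Gadd45b and 863 than Gadd45g. The 95th percentile of all log2 differences was 2.17, so that Plk2, Plk3 and Gadd45a lay above it and Gadd45b and Gadd45g below it. At the other end 292 genes lay below Sesn1. Mdm2 had 3397 genes above it, and Ccng1 had 1610 below it.

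**Figure D3:**
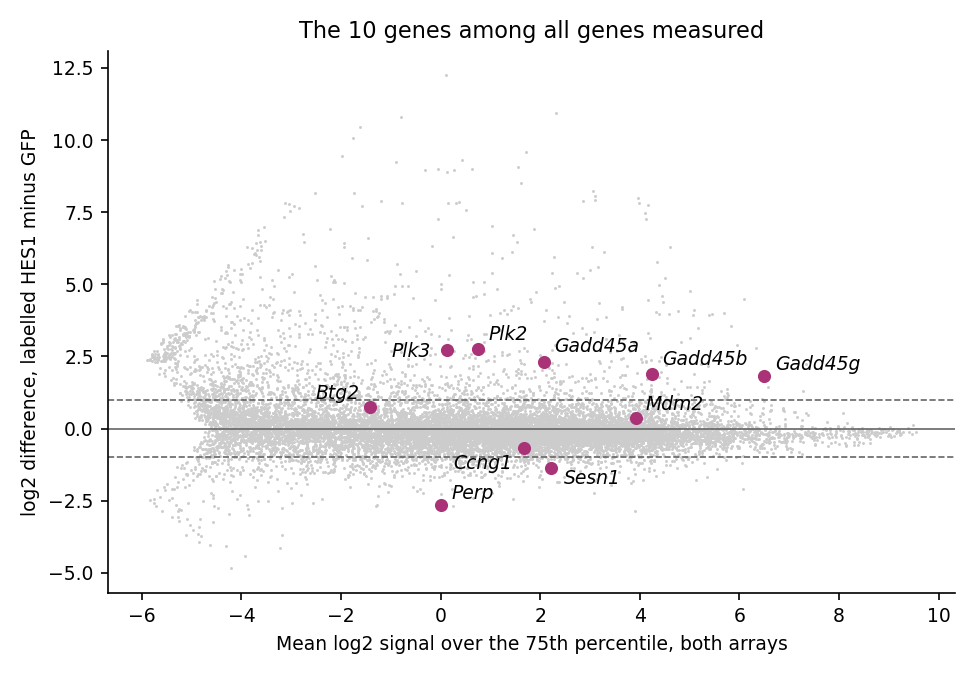
Log2 difference against mean log2 signal over the 75th percentile for all 14273 measured genes (grey), with the 10 genes of the set in purple and 2-fold as dashed lines. The 5 higher genes lie between 1.82 and 2.77, Btg2, Mdm2 and Ccng1 between the dashed lines, and Sesn1 and Perp below them.

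The sorting of the 10 genes into higher, lower and within 2-fold was the same under all 6 other ways of processing the spots. These were quantile normalization, another scaling constant, loess, normexp, the authors' deposited values and outlier spots kept. The deposited values repeat the scaling used here and the 10 genes had no flagged spot, so neither of these settings could change the sorting. Another scaling constant shifted all genes alike. Over the 6 settings, Plk2 ran from 2.53 to 2.91, Plk3 from 2.32 to 2.85 and Perp from -2.66 to -2.25. Gadd45a ran from 2.27 to 2.45, Gadd45b from 1.91 to 2.07 and Gadd45g from 1.82 to 2.01. Sesn1 ran from -1.36 to -1.21.

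**Figure D4:**
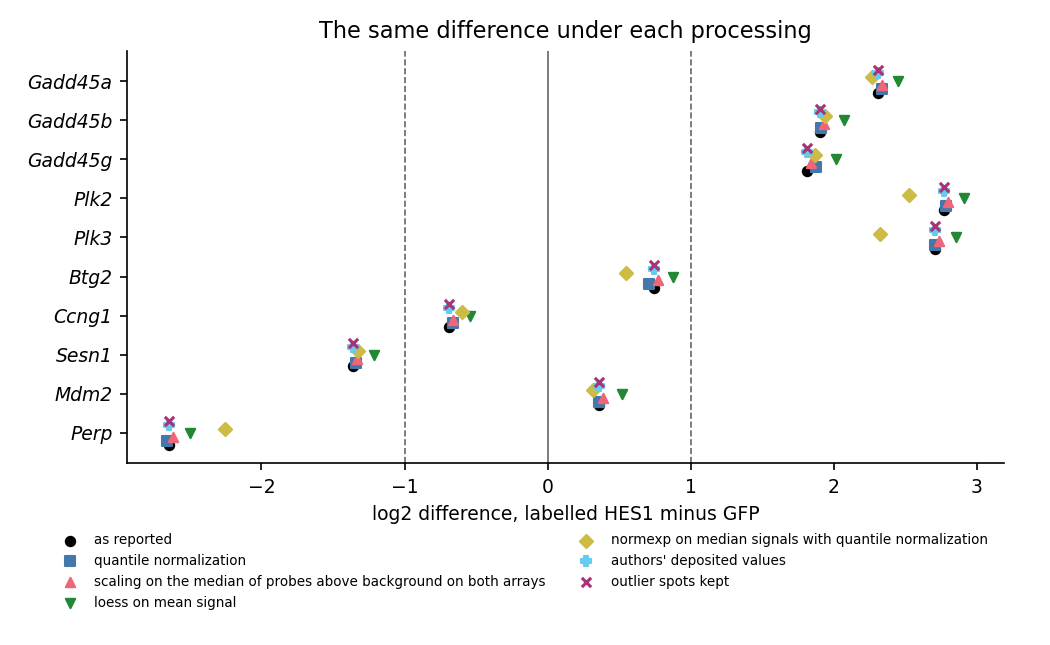
Log2 difference of each gene, sample labelled HES1 minus sample labelled GFP, as reported (black) and under 6 other ways of processing, with 2-fold as dashed lines. No gene crosses a dashed line, and the widest range is that of Plk3, from 2.32 to 2.85.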

How the data were processed

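The arrays shared a slide and an Agilent design annotated on mm9, and were read in 1 colour with Agilent Feature Extraction 10.10.1.1, as named by the submitters' processing notes and file headers. Each scanner file gives a processed intensity for every spot, background-corrected and detrended without scaling between arrays, as deposited. The series table equals those intensities times 1 factor per array (1.45 and 1.53), so it repeats the scaling used here. It gave both columns a 75th percentile of 1057.2, with medians of 67.7 for GFP and 76.6 for HES1.

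Processed signals were divided by the array's 75th percentile (59305 non-control spots) and log2 was taken. Spots with an outlier flag on either array (1053) were left out and spots of a probe were averaged. RefSeq accessions named 26869 of 54948 probes (48.9%) through a GRCm38.p6 gene table, none with several symbols. A gene was its brightest probe above background on at least 1 array. Named list genes were the 3 highest and 3 lowest past 2-fold per list, plus a fixed set: Trp53, Mdm4, Cdkn1a, Ppm1d, Bax, Sesn2, Sesn3, Btg1, Ccng2, Plk1, Plk4, Actb, Gapdh and Hes1. Others, the motifs, and the second Trp73 probe were chosen after their values were seen. The genes and lists were chosen with earlier results of these data known. Alternatives used limma 3.58.1 in R 4.3.3, and the steps were tested on simulated data. The number of arrays limits the precision. Among 232 probes with at least 8 spots above background, the median SD between spots was 0.07 (log2).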

Additional observations from a re-analysis of the deposited data

How the results depend on the processing

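Counts of the 10 genes kept their value under every setting of the spots and probes, and at 1.5-fold they were 6 higher and 3 lower. Each gene has 1 unflagged probe above background on both arrays. The filters, the choice of probe, the outlier spots and the deposited values therefore could not alter the 2-fold counts. At 3-fold 1 gene was lower (Perp), since Sesn1 did not reach it. The median of the 10 genes ran from 1.21 (normexp on median spot signals) to 1.45 (loess), and loess moved the median of all genes by 0.13. Over all genes, normexp gave 852 higher and 342 lower in place of 1582 and 707, a filter for both arrays gave 920 higher, 1.5-fold gave 2480 and 2084, and 3-fold gave 997 and 178. The share of all calls that were higher was 69.1%, and at 2-fold it ran from 61.5% with the filter for both arrays to 76.7% under loess. It was 54.3% at 1.5-fold and 84.9% at 3-fold. Under normexp, 0 relatives of the set were higher, 0 p53 regulators lower and 1 other p53 target lower, and loess also left 1 of the latter. Under loess the median of p53 and its regulators was 0.12, on the other side of 0. With the filter for both arrays 0 regulators were lower, and the median over probes made 2 higher, by the second probe of Trp73. At 1.5-fold, 5 relatives were lower, 2 regulators higher and 3 lower, and 9 other targets lower. At 3-fold, 0 relatives were higher or lower, 0 regulators lower, 3 other targets higher and 0 lower, and 2 GADD45 partners lower. Why these moved was not tested. No paired analysis was possible because each group has 1 array.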

Other observations

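Without any scaling between the arrays, the log2 differences of the 10 genes are 0.08 lower than those reported, from -2.73 for Perp to 2.69 for Plk2. The local background beside their spots was alike on both arrays, between 38 and 53 scanner units for GFP and between 36 and 51 for HES1. By rank among all non-control spots, which needs no scaling, Plk2 went from percentile 71.6 to 86.5, Plk3 from 68.1 to 83.1 and Gadd45a from 79.9 to 91.3. Perp went from percentile 82.2 to 67.4 and Ccng1 from 85.6 to 82.2.

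Of the list genes, 23 had several probes above background on both arrays. Their probes were a median of 0.25 apart on the log2 scale, and in 20 of the 23 genes they fell on the same side of 2-fold. The closest pairs included Aen (1.43 and 1.42) and Atm (0.80 and 0.79). The widest was Trp63, a p53 relative, at 0.03 by the brightest probe and 1.45 by the other. Usp7, a deubiquitinase of MDM2 and p53, followed at -0.26 and -0.93. Each gene of the set rests on 1 probe, so no such comparison exists for it.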
